A study of Mus musculus with 2 samples.

Results

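Inflammasomes are cytosolic complexes that sense microbial products or cell damage and activate inflammatory caspases. The 10 genes described here are the sensors Nlrp3, Nlrc4, Naip2, Naip5 and Naip6, the adaptor Pycard, the caspases Casp1, Casp4 and Casp8, and the pore-forming protein gene Gsdmd. They were chosen by name, with earlier results of these data known, out of 10497 genes to which spliced reads could be assigned. Each was measured as the sum of reads over its annotated introns. The groups were macrophages given interleukin 10 (IL-10) for 4 h, at 100 ng/ml, and untreated macrophages, each represented by 1 library. In both groups the cells were adherent peritoneal exudate macrophages of male C57BL/6JJcl mice, taken 3 days after thioglycolate, an irritant that draws monocytes into the peritoneum. They had been left to attach for 24 h, and floating cells had been removed. The number of mice behind each library is not stated in the sources used here. The labels give both samples the same treatment text, IL-10 included, and the groups rest on the sample titles. The comparison asks how macrophage transcripts differ with IL-10.

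NAIP proteins bind bacterial flagellin or parts of the type III secretion system and then recruit NLRC4, whereas NLRP3 responds to changes in the cell such as loss of potassium. Pycard encodes ASC, the adaptor that links sensors to caspase-1. Caspase-1 matures interleukin 1 beta and interleukin 18 and cuts gasdermin D, whose released fragment forms pores in the plasma membrane. Mouse Casp4 encodes caspase-11, which binds bacterial lipopolysaccharide in the cytosol and cuts gasdermin D without an upstream sensor. Caspase-8 is the initiator caspase of death receptors and can also act on these substrates.

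The IL-10 library held 3998954 junction reads on 109870 junctions and the untreated library 4035991 on 110102, and the median junction had 7 reads in both. Ratios compare a gene's share of the reads assigned to single genes, 3840085 with IL-10 and 3867273 without. Each ratio, IL-10 over untreated, carries an exact 95% interval that covers counting error only. A gene was called higher at a ratio of 2 or more and lower at 0.5 or less, provided that its interval lacked 1 and that it was measured, meaning 20 reads or more in the libraries together. With 1 library per group no value has a replicate check, and the ratios compare these libraries rather than the conditions. Macrophage markers were abundant, with 10 of 12 above 20 reads, 0 called, and summed reads of 64995 with IL-10 and 79996 without. Lyz2, with 31849 reads and 45047, made up most of that difference, and 4 markers, led by Msr1 at 1.82, had intervals above 1 and 4 below. Of the markers of other cells, 4 of 12 for neutrophils were measured (951 reads with IL-10 and 882 without, with no assigned read for S100a8, S100a9 and Ly6g), 2 of 7 for B cells (489 and 545), 2 of 10 for eosinophils and mast cells (106 and 71), 1 of 8 for dendritic cells (Itgax, which macrophages also express, with 7270 and 6711) and 5 of 10 for fibroblasts and mesothelium (1273 and 1167). Cd22, with 450 reads with IL-10 and 497 without, made up most of the B cell sum. Siglecf, with 86 and 48 (1.80, 1.25 to 2.625), made up most of the eosinophil and mast cell sum, while Tpsb2 had 10 and 11. T and NK cell markers summed to 12 reads with IL-10 and 1 without, with 0 of 9 measured. A gene needs matched reads on 2 introns to be assigned any, so a marker without an assigned read is not shown to be absent. Of 8 markers of resident peritoneal macrophages 7 were measured (275 and 253 reads), and Selp was called higher with 29 reads against 6. The other measured markers went both ways, each with an interval that held 1. Ltbp1 had 28 reads with IL-10 and 45 without, Gata6 18 and 22, Alox15 19 and 19, Timd4 16 and 12, F5 22 and 14, and Prg4 140 and 124. Icam2, under the minimum, had 3 and 11. The part of these differences in the results that follow was not tested, and more cells of a type cannot be told apart from more RNA per cell.

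Casp4 was the gene that stood apart, 3.98-fold higher in the IL-10 library (95% interval 2.96 to 5.41). Of the 10 genes 9 had at least 20 reads, and of these 1 was called higher, against 1.7% of the 8358 genes measured, and 0 were called lower, against 1.47%. By counting error alone, 2 intervals lay above 1 (Casp4 and Casp1; 12.8% of all measured genes), 1 lay below 1 (Pycard; 13.1%) and 6 held 1. The 8 measured genes that were not called spanned ratios of 0.690 to 1.32, and 85.4% of all measured genes lay within 1.5-fold. The median log2 ratio was 0.15 over the 9 genes and -0.0015 over all measured genes. In all, 98 junctions of the 10 genes at 7 loci held 1682 reads with IL-10 and 1341 without.

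**Figure D1:**
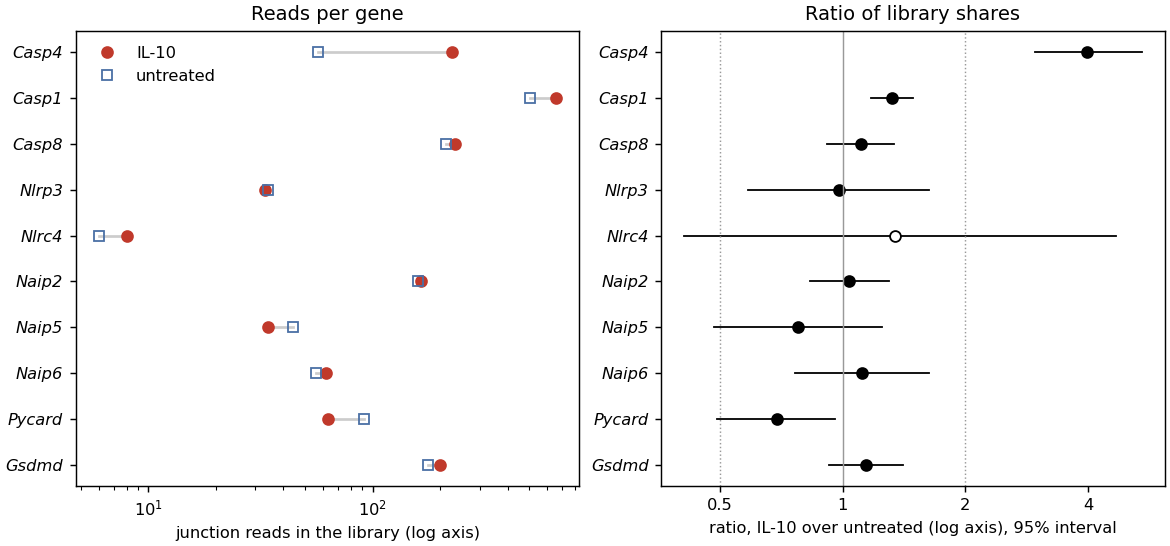
Left, junction reads of each gene in the IL-10 library (filled circles) and the untreated library (open squares) on a log axis. Right, the ratio of IL-10 over untreated shares on a log axis with its 95% counting interval, where the open circle is Nlrc4, with under 20 reads, and dotted lines mark ratios of 0.5 and 2. Casp4, at 225 and 57 reads, is the gene whose interval lies wholly beyond 2.

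Casp4 had 225 reads in the IL-10 library, against 57 in the untreated library, and each of its 9 introns with 5 or more reads was higher with IL-10. Its introns run from base 5308915 to base 5336534 of chromosome 9 (mm9, plus strand). Numbered from the 5′ end, intron 5 held the most reads, 61 with IL-10 and 15 without (4.10, 2.30 to 7.76), and intron 3 had 33 and 3 (11.1, 3.48 to 56.5). Intron 1 had 15 reads with IL-10 and 7 in the untreated library (2.16, 0.828 to 6.26), an interval that held 1, and intron 4 had 28 and 5. Introns 6 and 7 had 22 and 14 reads with IL-10, against 6 and 3 without. Intron 2 had 13 reads with IL-10 and 0 without, which is at least 4.36-fold higher when the untreated library is set at a floor of 3 reads, while its exact interval starts lower, at 3.07. The smallest ratio among the introns with 20 or more reads was that of intron 8, the last, with 34 reads and 16 (2.14, 1.15 to 4.15). The ratio of the other introns together, 4.69, lay outside that interval. An alternative acceptor of the first exon, from 5308915 to 5321425, had 5 reads with IL-10 and 2 without. Among the 6 introns with 20 or more reads, the intervals of 5 lay above 1.

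Casp1, which ends close upstream of Casp4 on the same strand, had 660 reads with IL-10 and 504 without, a ratio of 1.32 (1.17 to 1.48) that was not called. It had the highest level of the 10 genes on the scale of reads per intron per 1000000 assigned reads, 19.1 with IL-10 and 14.5 without. On that scale Casp4 stood at 7.16 with IL-10 and 1.78 without. Casp4 reads came to 34.1% of Casp1 reads in the IL-10 library and to 11.3% in the untreated library.

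The introns of Casp1 did not share 1 ratio. Intron 1, from 5298724 to 5299279, had 235 reads with IL-10 and 124 in the untreated library (1.91, 1.53 to 2.39), and intron 2 had 51 and 27 (1.90, 1.17 to 3.15). Intron 3 had 88 and 60 (1.48, 1.05 to 2.09), and intron 4 had 45 and 34 (1.33). Introns 8 and 9, at the 3′ end, had 116 and 78 reads with IL-10, against 127 and 90 in the untreated library (0.920 and 0.873). Between them, intron 5 had 7 reads with IL-10 and 19 in the untreated library (0.371, 0.132 to 0.922), intron 6 had 15 and 4 (3.78, 1.20 to 15.6), and intron 7 had 25 and 19 (1.33). Split after these values were seen, introns 1 to 4 together stood at 1.72 (1.47 to 2.02), with 419 and 245 reads, and introns 5 to 9 at 0.937 (0.783 to 1.12), with 241 and 259. The interval of the sum of Casp1 therefore rested on the 5′ part of the gene. The Casp1 reads that skipped an annotated exon, on junctions outside the annotation, numbered 4 with IL-10 and 0 without.

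**Figure D2:**
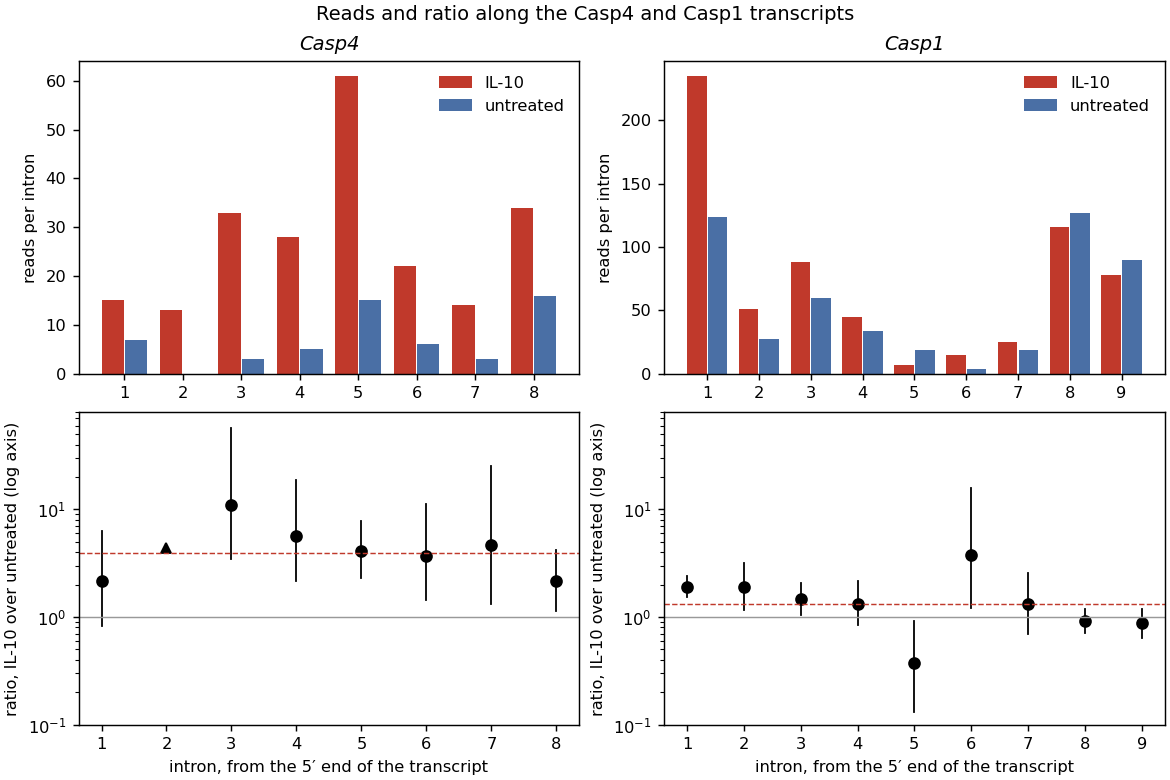
Top, reads per intron of Casp4 and Casp1 in the IL-10 library (left bar of each pair) and the untreated library (right bar), with introns numbered from the 5′ end. Bottom, the ratio per intron on a log axis with its 95% counting interval, where the triangle is the value of at least 4.36 for Casp4 intron 2 against a floor of 3 reads, the grey line is 1 and the dashed line is the gene's ratio (3.98 for Casp4, 1.32 for Casp1). The Casp4 points all lie above 1, while those of Casp1 lie above 1 in introns 1 to 4 and below 1 in introns 8 and 9.

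The nearest measured genes on both sides of this locus lay 913986 and 1593090 bases away. Msantd4 had 12 reads with IL-10 and 18 in the untreated library (0.671, 0.295 to 1.47). Dync2h1, a dynein heavy chain gene of cilia, was called lower with 14 reads against 34 (0.415, 0.206 to 0.793). Casp12, a further caspase gene of the inflammatory family, had 5 reads with IL-10 and 3 without, too few for a call.

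Since Casp4 and Casp1 are neighbours with different ratios, the 250 bases before their starts were taken from RefSeq (GRCm38.p6), chr9:5308599-5308848 for Casp4 and chr9:5298267-5298516 for Casp1, both on the plus strand. Capitals mark matches to GGGNNTTTCC or its reverse complement, letters of an NF-kB site that were chosen after the Casp4 sequence had been seen.
Casp4: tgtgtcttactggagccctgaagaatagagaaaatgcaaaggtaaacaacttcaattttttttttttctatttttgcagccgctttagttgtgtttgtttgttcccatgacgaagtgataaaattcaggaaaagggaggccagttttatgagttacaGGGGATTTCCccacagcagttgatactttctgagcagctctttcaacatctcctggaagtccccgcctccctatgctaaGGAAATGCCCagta
Casp1: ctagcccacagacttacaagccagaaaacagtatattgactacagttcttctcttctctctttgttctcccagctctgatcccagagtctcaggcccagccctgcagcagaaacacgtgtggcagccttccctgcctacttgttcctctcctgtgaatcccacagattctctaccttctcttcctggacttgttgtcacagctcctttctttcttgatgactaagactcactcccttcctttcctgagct
The matches began 93 and 14 bases before the Casp4 start. Casp4 has a second window, chr9:5308610-5308859, in which they began 104 and 25 bases before the start. These letters, read on both strands, occurred in 1.41% of the 32851 windows of the same length. The letters TTCNNNGAA of a STAT site occurred in 7.02% of windows and GAAANNGAAA of an interferon response element in 2.98%, and neither was in the Casp4 or Casp1 window. Windows were found for 9 of the 10 genes, and Casp4 was the gene among them with a match to any of the 3 patterns. The pattern GGGNNTTTCC was chosen with the Casp4 sequence in view, so its match in Casp4 was fixed in advance. Neither its share of windows nor its absence from the other genes is a test. These are matches of letters and say nothing of binding.

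Casp8, whose product starts apoptosis downstream of death receptors, had 233 reads with IL-10 and 212 in the untreated library (1.11, 0.915 to 1.34). On the same scale its level was 7.39 with IL-10 and 6.69 without. The gene lies on chromosome 1 (mm9, plus strand), with introns from 58852583 to 58903465. All 8 introns with 20 or more reads had intervals that held 1, with ratios from 0.791 to 1.87. The annotation gives Casp8 several first exons that splice to the same acceptor at 58880758. Their junctions had 5, 13 and 1 reads with IL-10, against 3, 7 and 2 reads in the untreated library, too few to compare their use. The neighbouring gene Cflar, which encodes the caspase-8 inhibitor c-FLIP, had 41 reads with IL-10 and 44 in the untreated library (0.938, 0.598 to 1.47).

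Gsdmd had 199 reads with IL-10 and 176 in the untreated library (1.14, 0.925 to 1.40), on introns between 75692912 and 75697426 of chromosome 15 (mm9, plus strand). Its level per intron was 5.16 with IL-10 and 4.55 without. The best covered introns were intron 7, with 50 and 33 reads (1.53, 0.964 to 2.44), intron 4, with 41 and 42 (0.983), and intron 6, with 36 and 24 (1.51, 0.877 to 2.65). Of its introns with 5 or more reads, 5 were higher and 5 lower with IL-10, and no interval of an intron with 20 or more reads lay apart from 1.

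Pycard differed in 1 of its introns and not in the other. The gene, on the minus strand of chromosome 7 (mm9), had 63 reads with IL-10 and 92 in the untreated library (0.690, 0.492 to 0.961). Intron 2, from 135136480 to 135136628, had 63 reads with IL-10 and 56 in the untreated library (1.13, 0.778 to 1.65). Intron 1, from 135136686 to 135136896, had 0 reads with IL-10 and 33 without, which is at least 10.9-fold lower when the IL-10 library is set at a floor of 3 reads, while its exact interval allows a ratio of up to 0.119. Without intron 1 the Pycard ratio was 1.08 (0.742 to 1.56), with 63 reads and 59, so the interval below 1 rested on that intron alone. A further annotated junction, from 135135190 to 135136224, had 0 reads with IL-10 and 3 without. Among 18431 assigned introns with at least 30 reads in the untreated library, 7 (0.0380%) had 0 with IL-10, and among 18547 with at least 30 reads in the IL-10 library, 10 (0.0539%) had 0 in the untreated library.

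The joined exons at these Pycard introns are shown because a read over intron 1 and a read over intron 2 both pass through exon 2, of 57 bases. The last 40 bases before each intron are in lower case and the first 40 bases after it in capitals (GENCODE M21 transcripts).
Pycard intron 1: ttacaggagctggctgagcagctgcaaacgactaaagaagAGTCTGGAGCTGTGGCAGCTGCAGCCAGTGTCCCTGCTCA
Pycard intron 2: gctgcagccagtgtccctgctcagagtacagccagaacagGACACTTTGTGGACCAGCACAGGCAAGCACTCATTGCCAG
At intron 2, the longest stretch aligned on the exon 2 side was 52 bases in the IL-10 library and 70 bases in the untreated library, the untreated one being longer than exon 2. A junction from exon 1 straight to exon 3, from 135136480 to 135136896, had 0 reads with IL-10 and 1 without. The cause of the 0 at intron 1 was not tested. The nearest measured gene on the side of higher coordinates was the integrin gene Itgam, at 1.32 (1.16 to 1.51).

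**Figure D3:**
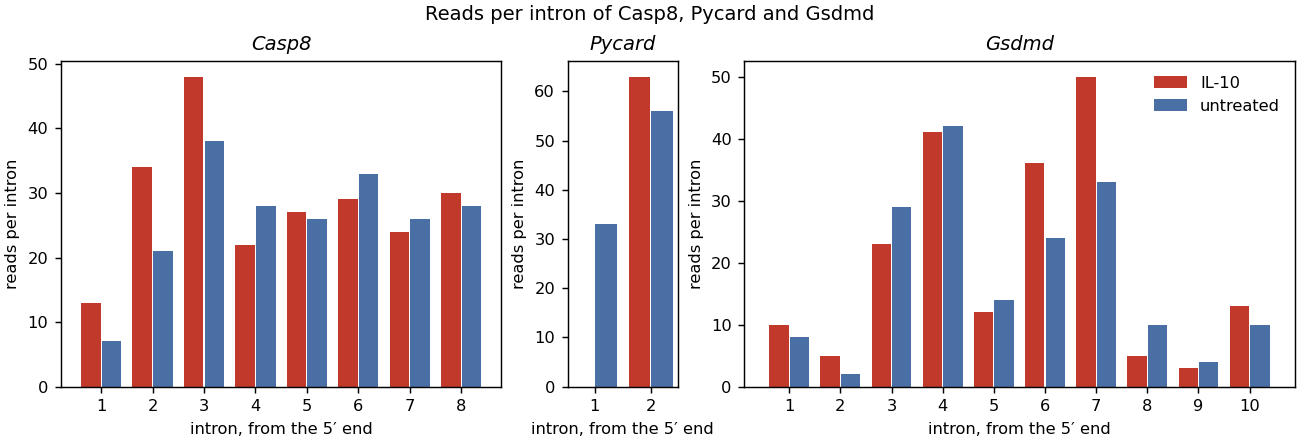
Reads per intron of Casp8, Pycard and Gsdmd, with introns numbered from the 5′ end, in the IL-10 library (left bar of each pair) and the untreated library (right bar). Pycard intron 1 has 33 reads in the untreated library and no bar with IL-10, while intron 2 has 63 and 56.

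Nlrp3, the sensor gene that inflammatory signals are known to induce in macrophages, had 33 reads with IL-10 and 34 in the untreated library (0.977, 0.587 to 1.63). Its introns run from 59356370 to 59379665 of chromosome 11 (mm9, plus strand), and all 9 introns of the transcript used were matched. Intron 3 had 8 reads with IL-10 and 9 without, intron 6 had 7 and 7, and intron 1 had 5 and 5. Its level per intron, 0.955 with IL-10 and 0.977 without, was among the lowest of the 10 genes. The interval allows a ratio from 0.587 to 1.63, so a change smaller than that could not be seen at this depth.

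Nlrc4, the partner of the NAIP proteins, had 8 reads with IL-10 and 6 without and stayed below the minimum of 20 reads (1.34, 0.409 to 4.70). Of its 8 introns on chromosome 17 (mm9, minus strand, 74826475 to 74858345) 7 were matched, and 1 had reads in both libraries. Its level was the lowest of the 10 genes, 0.260 per intron with IL-10 and 0.194 without.

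The Naip genes are similar copies that lie side by side on the minus strand of chromosome 13, between Smn1 and Gtf2h2. On introns annotated to each gene alone, Naip2 had 165 reads with IL-10 and 160 in the untreated library (1.04, 0.830 to 1.30). Naip2 lies at 100914679 to 100971910 (mm9). Its protein recognises the inner rod of the type III secretion system. Naip5 and Naip6, whose products bind flagellin, had fewer reads. Naip5 (100982927 to 101015586) had 34 reads with IL-10 and 44 in the untreated library (0.778, 0.482 to 1.25), and Naip6 (101053869 to 101085938) had 62 and 56 (1.11, 0.764 to 1.63). Levels per intron were 2.86 with IL-10 and 2.74 without for Naip2, 0.681 and 0.875 for Naip5, and 1.24 and 1.11 for Naip6. None of the 3 was called.

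The copies are alike next to many splice sites. A corresponding intron of each gene is shown for the Naip2 acceptor with the most reads, and it is among the more alike. The 40 bases before and the 40 bases after the intron are joined, read on the coding strand (GENCODE M21 transcripts), and capitals mark bases that differ from Naip2.
Naip2 intron 6: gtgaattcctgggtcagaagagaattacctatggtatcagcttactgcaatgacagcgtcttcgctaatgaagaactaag
Naip5 intron 4: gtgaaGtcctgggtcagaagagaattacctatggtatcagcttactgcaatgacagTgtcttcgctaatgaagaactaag
Naip6 intron 4: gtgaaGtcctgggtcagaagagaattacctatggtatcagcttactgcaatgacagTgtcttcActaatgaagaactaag
Naip1 intron 5: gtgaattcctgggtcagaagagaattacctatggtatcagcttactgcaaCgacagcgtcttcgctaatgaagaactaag
Over the 13 coding introns that could be lined up, the median identity of these 80 bases was 97.5% between Naip5 and Naip6, with 2 introns identical, 92.5% between Naip2 and Naip5, 92.5% between Naip2 and Naip6, and 93.8% between Naip2 and Naip1. Identity to Naip2 was lowest at 75.0% for Naip5, 73.8% for Naip6 and 72.5% for Naip1. At the introns printed above, Naip2 had 18 reads with IL-10 and 18 without, Naip5 had 13 and 7, Naip6 had 17 and 3, and Naip1 had 6 and 22. Reads of 90 bases over such exons cannot always be assigned to 1 copy, so every value of a single Naip gene is uncertain.

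Many junctions of the cluster joined the donor site of a Naip gene to the acceptor site of another. The cluster held 138 junctions, with 476 reads with IL-10 and 583 without (0.822, 0.727 to 0.930). Of these reads, 67.0% with IL-10 and 61.4% without lay on 57 introns annotated to 1 gene, and 22.5% with IL-10 and 26.8% without lay on 41 junctions between sites of different genes. The junctions between genes had 107 reads with IL-10 and 156 in the untreated library (0.691, 0.535 to 0.889), and those on annotated introns had 319 and 358 (0.897, 0.769 to 1.05). Naip2 lies furthest downstream on the minus strand, so its acceptors can be joined to donors of every other copy. Naip2 also had a higher level per intron, 2.86 with IL-10 and 2.74 without, than Naip5, Naip6, Naip1 and Naip3. The part of gene order or of level in the counts that follow was not tested. Acceptors of Naip2 were the most frequent, and took 89 reads with IL-10 and 119 without from donors of other genes. Donors of Naip5 gave 30 and 46 of these reads, those of Naip3 30 and 33, those of Naip1 24 and 31, and those of Naip6 5 and 9.

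**Figure D4:**
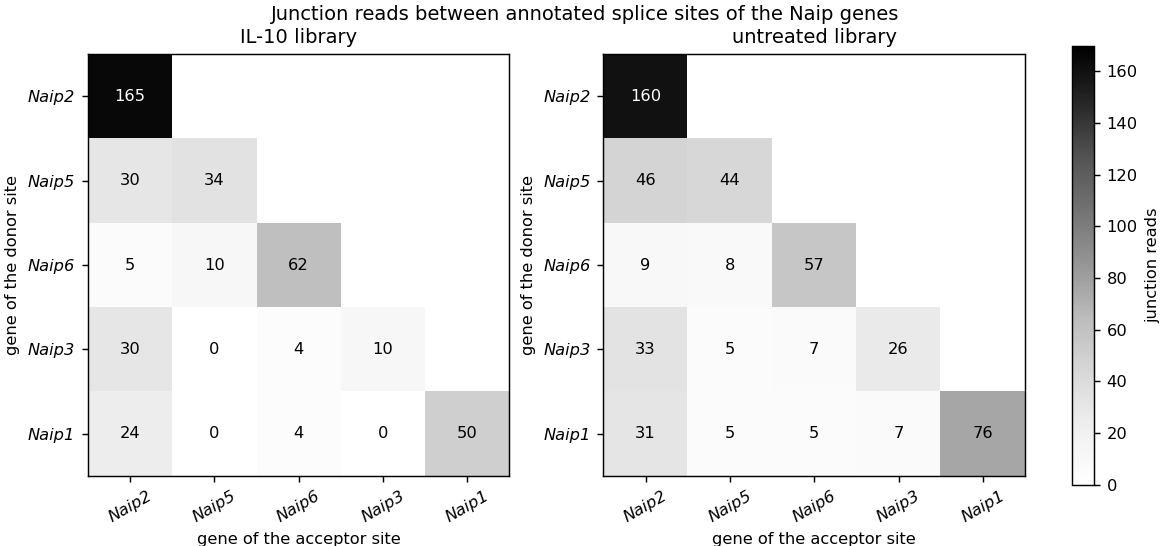
Junction reads between annotated splice sites of the Naip genes in the IL-10 library (left) and the untreated library (right), with the gene of the donor site down the page and that of the acceptor site across. Naip2 to Naip2 holds 165 reads with IL-10 and 160 without, and the Naip2 column holds the most reads off the diagonal. Naip2 lies furthest downstream, so its column is the one open to donors of all other copies.

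Some of these junctions had equal values. At a shared splice site, 43 junctions in 22 sets of up to 4, some of which overlapped, had the same number of reads and the same aligned lengths in both libraries, 76 reads with IL-10 and 113 without. Whether they stand for the same reads was not tested, and many rest on few reads. For example, the Naip2 acceptor of the printed intron, at 100949424, was joined to a Naip3 donor at 101143889 and to a Naip1 donor at 101206377, each with 17 reads with IL-10 and 15 without. With overlapping sets joined into 15 and each counted once, the cluster held 435 reads with IL-10 and 513 without (0.854, 0.7498 to 0.972).

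Taking every junction with an end at a site of the gene left Naip2 at 274 reads with IL-10 and 306 without (0.902, 0.763 to 1.07) and Naip6 at 87 and 95 (0.922, 0.682 to 1.25). By that count Naip5 had 75 reads with IL-10 and 114 in the untreated library (0.663, 0.488 to 0.894), so its interval lay below 1 where that of its annotated introns did not. The count takes junctions with equal values in full, so its intervals may be too narrow. For Naip5 these include acceptor 101015147 joined to 101148347 and to 101214124, each with 0 reads with IL-10 and 5 without. Within Naip2, 8 introns with 5 or more reads were higher and 4 lower with IL-10, and the 8 with at least 20 reads spanned ratios of 0.687 to 1.61. Within Naip5, intron 4 had 13 reads with IL-10 and 7 without, intron 7 had 3 and 11, and intron 1 had 0 and 6. The introns of Naip6 differed among themselves. Intron 4, printed above, had 17 reads with IL-10 and 3 in the untreated library (5.71, 1.65 to 30.4), intron 3 had 13 and 0, and intron 9 had 13 and 23 (0.569, 0.265 to 1.17). Of the copies that are not among the 10 genes, Naip3 was called lower on its annotated introns, with 8 reads and 22 (0.366, 0.141 to 0.854). Naip1 was not called, with 50 reads and 76 (0.663, 0.454 to 0.959). Its introns 4 and 5 had 1 and 6 reads with IL-10, against 13 and 22 without, and its other introns together had 43 and 41 (1.06, 0.672 to 1.66), a split made after the values were seen. Introns 4 and 5 of Naip1 line up with introns 3 and 4 of Naip6 (identity of 95% each), which were higher with IL-10. Whether reads were assigned to the wrong copy there was not tested. Naip3 is annotated as a pseudogene, and 3 of its 12 introns were matched. An unannotated junction between Naip5 and Naip6, from 101016279 to 101017131, had 19 reads with IL-10 and 13 without.

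The flanking gene Smn1 had 148 reads with IL-10 and 133 in the untreated library (1.12, 0.881 to 1.43), and Gtf2h2 on the other side had 139 and 223 (0.628, 0.504 to 0.779).

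Splice site choice was compared where a donor or acceptor of the 10 genes had more than 1 junction and at least 20 reads in each library, which left 12 of 61 sites with 44 junctions. A call required a share that differed by 20 percentage points or more, with separate 95% intervals. The difference passed for 1 junction, at the Naip2 acceptor 100922602, and did not pass once junctions with equal values were counted once. Its own donor, at 100924809, supplied 21 of 21 reads with IL-10 (100%, exact binomial interval 83.9% to 100%) and 14 of 27 without (51.9%, 32.0% to 71.3%). The other reads of that acceptor in the untreated library came mostly from donors of other Naip genes, and 4 of the junctions to it had the same reads and aligned lengths. With those 4 counted as 1, a count added after the data were seen, the own donor supplied 14 of 21 untreated reads (66.7%, 43.0% to 85.4%), an interval that overlaps that of the IL-10 library, and 0 junctions of the 10 genes were called. At the 6 tested sites outside the Naip genes the largest difference was 5.56 points, and 0 were called.

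Each intron was also set against the other introns of its gene. Of their 40 introns with at least 20 reads and at least 20 reads per library on the rest of the gene, 9 (22.5%) had an interval that lacked the ratio of the rest. Over all genes the share was 11.7% of 41781 introns. The 9 were introns 1, 5, 8 and 9 of Casp1, intron 8 of Casp4, intron 1 of Pycard, intron 4 of Naip5 and introns 4 and 9 of Naip6. The ratio of the rest was taken as exact, although it has counting error too. Introns of the same gene also enter each other's rest. The shares therefore cannot show how far the spread goes beyond counting error.

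Other genes of inflammasomes and cell death were read from 5 lists with 102 gene names, which gave 67 measured genes. Some names are older and newer symbols of the same gene, such as Tmem173 and Sting1, so the lists hold fewer genes than names. The lists were drawn up with earlier results of these data known, so the counts are a description. Of the 67 genes 4 (5.97%) were called higher and 1 (1.49%) lower, against 1.7% and 1.47% of all measured genes. Intervals lay above 1 for 14 genes (20.9%) and below 1 for 7 (10.4%), against 12.8% and 13.1% of all measured genes, and the median log2 ratio was 0.11.

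Among 16 other sensors 10 were measured, 2 were higher and 1, the Naip3 pseudogene, was lower. Mefv, which encodes the inflammasome protein pyrin, had 29 reads with IL-10 and 9 in the untreated library (3.25, 1.496 to 7.79). Nlrp1b, the sensor of anthrax lethal factor in mice, had 37 and 16 (2.33, 1.26 to 4.48), and its neighbouring copy Nlrp1a had 21 and 11 (1.92, 0.886 to 4.42). The interferon-inducible genes Ifi205 (1.59, 1.05 to 2.42) and Ifi204 (1.18, 1.01 to 1.38) had intervals above 1, while Aim2, the sensor of cytosolic DNA, had 77 reads and 88 (0.881, 0.640 to 1.21). The Nlrp1 and Ifi200 families hold similar copies, so these values are uncertain in the same way as those of the Naip genes.

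The 30 names of regulators and licensing factors gave 20 measured genes, of which 1 was called. Nlrc5, a regulator of class I antigen presentation genes, had 143 reads with IL-10 and 39 in the untreated library (3.69, 2.58 to 5.41). Tmem173, which encodes the cyclic dinucleotide receptor STING, had 187 and 113 (1.67, 1.31 to 2.12), and the guanylate-binding protein gene Gbp7 had 35 and 20 (1.76, 0.9896 to 3.22). Nlrc3, an inhibitory member of the same receptor family, stood at 0.782 (0.568 to 1.07). The 15 names of cytokine substrates and lysis effectors gave 6 measured genes, and 0 were called. Il1a had 55 reads with IL-10 and 100 in the untreated library (0.554, 0.391 to 0.777), Ninj1, whose product ruptures the membrane of dying cells, had 3085 and 3809 (0.816, 0.778 to 0.856), and the membrane repair gene Chmp4b stood at 0.884 (0.819 to 0.955). Gsdme, a further gasdermin gene, had 32 reads and 34 (0.948, 0.566 to 1.58). The genes of the cytokine substrates of caspase-1 had under 20 reads. Il1b had 15 reads with IL-10 and 1 in the untreated library (15.1, 2.32 to 636), and Il18 had 8 and 11.

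Caspase-8 partners and other caspases had 17 measured genes for 23 names, with 0 called, 6 intervals above 1 (12.8% of all measured genes) and 0 below (13.1%). The inhibitor of apoptosis gene Birc3 had 59 reads with IL-10 and 34 in the untreated library (1.75, 1.13 to 2.75). Casp6 (1.40, 1.05 to 1.88), the necroptosis kinase genes Ripk3 (1.40, 1.06 to 1.84) and Ripk1 (1.20, 1.03 to 1.38) and the apoptosome gene Apaf1 (1.34, 1.12 to 1.61) followed. The death domain adaptor gene Cradd had 13 reads with IL-10 and 9 in the untreated library (1.45, 0.575 to 3.86). The last list held receptors and transcription factors of the interferon and toll-like receptor pathways, which are known to induce Casp4. It also held Stat3, the factor downstream of the IL-10 receptor, and C3ar1 and Cpb1, neither with an assigned read. Of its 18 genes 14 were measured, and Stat3 was called higher with 1516 reads against 687 (2.22, 2.03 to 2.44). The interferon receptor gene Ifnar1 stood at 1.14 (1.01 to 1.28), Ifngr1 at 0.825 (0.737 to 0.923) and Irf7, an interferon regulatory factor gene, at 0.825 (0.698 to 0.974). The lipopolysaccharide receptor gene Tlr4 had 17 reads and 14 (1.22, 0.567 to 2.68).

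**Figure D5:**
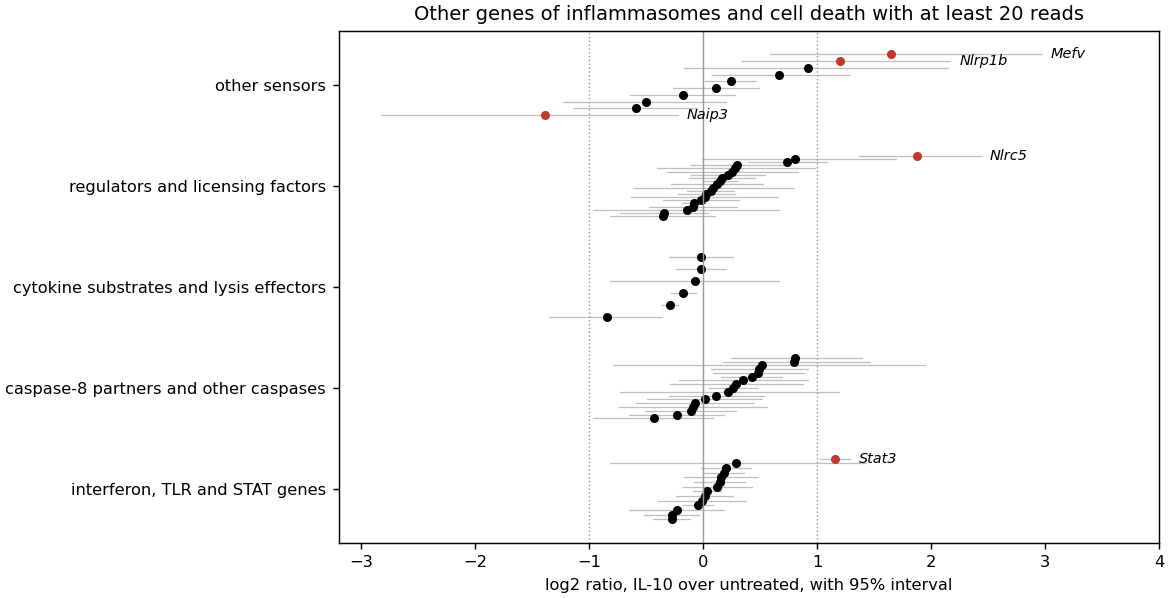
Log2 ratio, IL-10 over untreated, of each measured gene in the 5 lists, with its 95% counting interval and dotted lines at log2 ratios of -1 and 1. Red points are the called genes, Mefv, Nlrp1b, Nlrc5 and Stat3 on the higher side and Naip3 on the lower side.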

How the data were processed

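TopHat, Cufflinks and the mm9 build are named, without versions, per the submitters' processing notes. The deposited counts, per the file headers and their layout, are unscaled reads per splice junction; of junctions with 1 read, 97.1% had 90 aligned bases. Depths were 3998954 (IL-10) and 4035991 reads (untreated), with insert sizes of 188 and 197 per the labels. How replicate cultures or animals were used is not given in the sources used here.

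Junctions were named from GENCODE M21 (a later build) by chromosome, strand and exact intron length, where at least 2 introns of a gene shared an offset of up to 20 Mb. This named 106609 of 131057 junctions (81.3%) and 96.0% and 95.8% of reads for single genes. Coordinates are those of the deposited mm9 lists, except promoters. Intron numbers follow the CCDS transcript with the most reads.

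A ratio is of shares of assigned reads, with an exact conditional binomial (Clopper-Pearson) interval. A level is reads per intron of that transcript per 1000000 assigned reads. Log2 ratios add 0.5 reads, and 0 was set to a floor of 3 reads. Intervals and floors cover counting error only. The named genes were the 10 genes with every junction of 5 or more reads (in full or by range), other Naip genes, nearest measured neighbours, and, of each list, called genes, the 4 largest log2 ratios and intervals without 1; some others were named after their values were seen, and some genes that this rule names are not reported here. The genes and lists were chosen with earlier results of these data known. Promoter windows are from RefSeq (GRCm38.p6). The procedure was run on simulated counts that held counting error only, which says nothing of variation between libraries. Python 3.11.15 (numpy 2.4.6, scipy 1.17.1, pandas 2.3.3, matplotlib 3.10.9) and R 4.3.3 (edgeR 4.0.16 and DESeq2 1.42.0, for scaling alternatives) were used.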

Additional observations from a re-analysis of the deposited data

How the results depend on the processing

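No paired analysis was possible because each group has 1 library. Under the 13 alternatives (total of all junction reads, TMM, DESeq2 size factors, shared introns, only the best covered intron, all junctions within the gene, longer aligned sides, a 99% interval, folds of 1.5 and 3, minima of 0 and 100 reads, and a pseudocount of 5), 1 of the 10 genes, Casp4, was called higher and 0 lower. The log2 ratio of Casp4 ranged from 1.90 to 2.04. Reduced to its best covered intron, Casp1 stood at 0.97, Pycard at 0.22, Naip5 at 0.89 and Naip6 at -0.75, each uncalled, and the sign of Pycard, Naip5 and Naip6 was then opposite to that of their sums. At a fold of 1.5, 350 genes were higher and 332 lower over all measured genes, and 8 and 3 in the 5 lists. With at least 100 reads, 37 genes were higher and 10 lower, fewer because fewer were tested. The 1 called splice junction was also called with 10 reads per site and at 10 points, but 0 were called once junctions with the same reads and aligned lengths were counted once. Depth limits Nlrc4, Nlrp3 and Naip5 most.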
